A study of Homo sapiens with 6 samples.

Results

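CYP1B1 is a cytochrome P450 enzyme of the CYP1 family and a target of the aryl hydrocarbon receptor (AHR), and it was examined here together with AHR and its closest partners in cells grown on fructose or glucose. The 7 genes named for this comparison were CYP1B1, CYP1A1, CYP1A2, AHR, its repressor AHRR, its partner ARNT and the feedback gene TIPARP. They were found through the array's platform annotation, and where a gene has several probe sets the brightest one over the 6 arrays stands for it. Of the 7, 6 had 1 probe set of their own, among 18404 genes so represented on the array. AHRR had none, because its only probe set is annotated to both AHRR and the neighbouring gene PDCD6. CYP1B1 was selected on its own difference between the sugars, having been seen to be higher in fructose on these same arrays, so its values are a description without a test.

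The fructose group was 3 cultures of MDA-MB-231, a human cell line derived from a breast cancer without hormone receptors or HER2 amplification, adapted for 25 days to DMEM with 10 mM fructose. The glucose group was 3 cultures of the same line kept for 25 days in DMEM with 25 mM glucose, and the series frames the comparison as restricted glycolysis. Each replicate was its own adapted batch, harvested near 70% confluency and some 24 hours after a medium change. Which sugar was given, how much of it and whether glucose was present changed together, so these cannot be told apart, and all cells are of 1 line.

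AHR is a ligand-activated transcription factor of the bHLH-PAS family that waits in the cytosol with HSP90 and its co-chaperones. After binding a ligand, such as a dioxin, a polycyclic aromatic hydrocarbon or a tryptophan metabolite, it enters the nucleus, pairs with ARNT and binds xenobiotic response elements whose core reads GCGTG. CYP1A1, CYP1A2 and CYP1B1 are its best known targets, while AHRR and TIPARP are induced by it and restrain it. In breast cells CYP1B1 is known for turning estradiol into a catechol estrogen.

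Precision is limited by the 3 arrays in a group. RMA intensities ran from 2.15 to 9287 with array medians of 33.1 to 34.8, and log2 differences had a median SE of 0.095. VIM, CD44, CAV1 and MSN, markers of the mesenchymal state of this line, were brighter than at least 98.6% of probe sets, whereas SPARC was dim (38.5%). The luminal markers ESR1, PGR, FOXA1 and CDH1 lay below the median probe set, and ERBB2 and GATA3 above it. None of the 5 measured leukocyte markers and 1 of 6 fibroblast markers (COL1A1) lay above the median, and the mean log2 of the leukocyte list was 3.90 to 4.01 on fructose arrays and 3.95 to 4.04 on glucose arrays. That of the fibroblast list was 3.81 to 3.85 on fructose arrays and 3.84 to 3.88 on glucose arrays. On the first principal component (28.8% of the variance) fructose replicate 2, at -5.67, lay between the other fructose arrays (-17.9 and -19.3) and the glucose arrays (13.5 to 14.8).

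CYP1B1 was higher in fructose on every array, CYP1A1 was lower on every array, and the other measured members differed by 0.19 or less on the log2 scale. CYP1B1 (probe set 8051583) had intensities of 152, 127 and 137 in fructose, against 68.5, 68.6 and 72.4 in glucose. The lowest fructose array was thus well above the highest glucose array, and the fructose cultures varied more among themselves than the glucose cultures. The group means were 139 ± 12.4 in fructose and 69.8 ± 2.19 in glucose (SD, n = 3 each). The log2 difference, fructose minus glucose, was 0.98 (SE 0.08, 95% interval 0.79 to 1.18), a fold of 1.98. By size it was number 12 among the positive differences of 28230 probe sets. The lowest fructose value belonged to replicate 2, and without that array the difference was 1.05. RNA was taken from whole cultures, so more cells with the transcript and more transcript per cell cannot be told apart for this or any gene below. The probe set of CYP1B1-AS1, a transcript from the opposite strand of the locus that was chosen after its values were seen, was dim and overlapped between the sugars, with 9.44, 8.18 and 8.08 in fructose and 7.47, 8.38 and 8.02 in glucose.

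**Figure D1:**
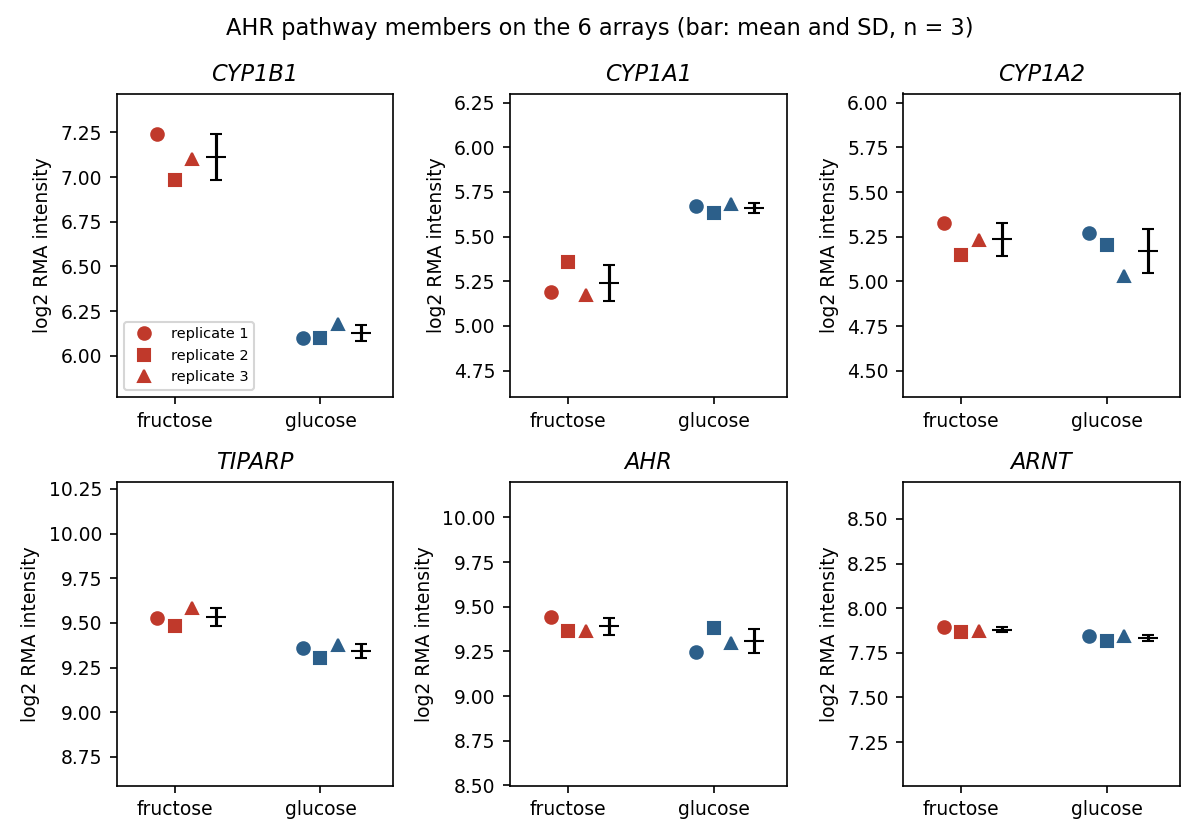
Log2 RMA intensity (vertical axis) of the 6 members with a probe set of their own on each array, fructose left and glucose right, with the mean and SD of 3 arrays beside the points. All panels span the same log2 range, so that the gap of CYP1B1 (0.98 upward in fructose) and of CYP1A1 (0.42 downward) can be set against the small differences of CYP1A2, AHR and ARNT.

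CYP1A1, the enzyme most often read as a sign of AHR activity, was not higher with CYP1B1. Its probe set (7990391) had 36.5, 41.0 and 36.1 in fructose, against 51.0, 49.5 and 51.4 in glucose. All fructose arrays lay below all glucose arrays, and fructose replicate 2 again lay nearest to glucose. CYP1A1 differed by -0.42 (SE 0.08, 95% interval -0.60 to -0.24), equal to a level 1.34-fold lower in fructose, with a limma adjusted p of 0.14 over all probe sets and an unadjusted p of 0.00077. It therefore missed the threshold of 0.05 in the fit of all 28230 probe sets, and passed it with an adjusted p of 0.036 when only the brighter 14115 probe sets were fitted. CYP1A1 was brighter than 56.3% of probe sets, so its signal stood close to that of the median probe set. CYP1A2, a mainly hepatic enzyme beside CYP1A1 on chromosome 15, had 40.2, 35.4 and 37.6 in fructose and 38.6, 36.8 and 32.7 in glucose. These ranges overlapped, and the difference was 0.07 (95% interval -0.14 to 0.28, limma adjusted p = 0.80). CYP1A2 was brighter than 52.6% of probe sets, so its signal too stood close to that of the median probe set. Whether the CYP1A1 and CYP1A2 signals rose above array background was not tested.

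TIPARP, an ADP-ribosyltransferase that modifies AHR and marks it for breakdown, had 739, 716 and 768 in fructose and 656, 631 and 664 in glucose. Every fructose array was above every glucose array, by a small margin. The difference was 0.19 (SE 0.07, 95% interval 0.03 to 0.34), with a limma adjusted p of 0.31 and an unadjusted p of 0.025. The probe set shared by AHRR and PDCD6 had 75.0, 64.6 and 79.0 in fructose and 64.1, 59.2 and 57.9 in glucose, a difference of 0.27 (limma adjusted p = 0.31) that cannot be assigned to either gene. Its lowest fructose array and its highest glucose array were nearly level. Another probe set that PDCD6 shares, with its pseudogene PDCD6P1, is outside the naming rule and was chosen after its values were seen. It differed by 0.25 (limma adjusted p = 0.30). AHRR, which competes with AHR for ARNT, thus had no reading of its own.

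The receptor and its partner were bright and close to equal between the sugars. AHR was brighter than 95.2% of probe sets and had 696, 659 and 658 in fructose and 606, 665 and 629 in glucose. Only fructose replicate 1 lay above all glucose arrays, and the difference was 0.08 (95% interval -0.08 to 0.25, limma adjusted p = 0.66). ARNT, brighter than 84.9% of probe sets, had 238, 233 and 235 in fructose and 229, 225 and 230 in glucose. Its replicates lay very close together and the sugars did not overlap, with a difference of 0.04 (95% interval -0.10 to 0.19, limma adjusted p = 0.81).

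Of the 5 members other than CYP1B1 with their own probe set, 0 passed the limma test at an adjusted p under 0.05, where 0.00354% of all probe sets passed (1 of 28230, TXNIP, the glucose-responsive brake on glucose uptake). At an unadjusted p under 0.05, 2 of the 5 passed, CYP1A1 downward and TIPARP upward, where 13.1% of all probe sets passed. The arrays of the sugars did not overlap for 3 of the 5, with TIPARP and ARNT higher and CYP1A1 lower, where 20.2% of all probe sets did not overlap (11.4% higher and 8.81% lower in fructose). The 3 measured target genes besides CYP1B1 (CYP1A1, CYP1A2 and TIPARP) had a median difference of 0.07 beside a median of 0.02 over all tested probe sets. Leaving out an array moved the median to -0.0010 without glucose replicate 3, 0.02 without fructose replicate 1, 0.11 without fructose replicate 2 and 0.12 without glucose replicate 1. With the shared AHRR and PDCD6 probe set counted as a target, an alternative added after the data were seen, that median was 0.13. Across the 6 arrays the Pearson correlation with CYP1B1 was -0.98 for CYP1A1, 0.94 for TIPARP, 0.91 for ARNT, 0.71 for AHR and 0.40 for CYP1A2. These are descriptions over 6 points that mostly reflect the gap between the sugars.

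Promoter windows are shown for 3 AHR targets, because the receptor acts through GCGTG and these genes differed in opposite directions: CYP1A1 was lower, and TIPARP and the drug exporter ABCG2 were higher, though none passed the adjusted test. The sequences come from RefSeq (GRCh38.p14) and run from 250 bases before to 50 bases after a transcript start, 5′ to 3′ on the gene's strand. The table matched 6 of the 7 members, all but CYP1B1. Capitals mark GCGTG, or its reverse complement CACGC where the match is on the opposite strand.
CYP1A1, chr15:74725479-74725778, minus strand: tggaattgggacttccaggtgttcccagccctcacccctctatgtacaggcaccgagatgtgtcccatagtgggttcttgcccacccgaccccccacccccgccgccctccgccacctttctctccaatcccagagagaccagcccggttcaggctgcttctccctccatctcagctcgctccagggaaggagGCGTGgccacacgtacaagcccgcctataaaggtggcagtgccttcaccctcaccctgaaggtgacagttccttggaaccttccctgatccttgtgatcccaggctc
TIPARP, chr3:156674340-156674639, plus strand: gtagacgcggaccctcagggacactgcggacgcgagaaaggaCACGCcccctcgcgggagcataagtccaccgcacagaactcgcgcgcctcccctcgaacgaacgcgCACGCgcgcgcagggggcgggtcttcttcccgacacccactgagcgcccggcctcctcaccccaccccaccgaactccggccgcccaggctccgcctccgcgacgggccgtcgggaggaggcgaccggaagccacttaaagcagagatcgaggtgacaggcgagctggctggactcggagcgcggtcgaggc
ABCG2, chr4:88158590-88158889, minus strand: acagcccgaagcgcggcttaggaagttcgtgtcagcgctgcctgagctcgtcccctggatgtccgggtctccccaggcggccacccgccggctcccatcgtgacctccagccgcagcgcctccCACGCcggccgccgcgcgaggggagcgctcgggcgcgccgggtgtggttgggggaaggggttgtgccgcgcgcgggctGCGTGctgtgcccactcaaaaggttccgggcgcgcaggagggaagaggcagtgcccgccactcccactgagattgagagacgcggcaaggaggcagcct
The CYP1A1 window held 1 match, beginning 57 bases before the start, and the TIPARP window held 2, both on the opposite strand and beginning 208 and 142 bases before the start. TIPARP has 3 windows in the table and ABCG2 has 5, and the windows printed are the first by position. The printed ABCG2 window held 2 matches, beginning 127 and 49 bases before the start. The other TIPARP windows held 0 matches, and the other ABCG2 windows held either 2 or 0. Neither strand of the 3 printed windows held TNGCGTG, a longer form of the element that contains GCGTG, and among the members only AHRR had it. GCGTG on either strand occurred in 36.5% and TNGCGTG in 5.51% of all 35114 windows of this length. At least 1 window with GCGTG was found for 4 of the 6 matched members, CYP1A1, TIPARP, AHR and AHRR, and for 40.6% of all genes. The list of further AHR targets described below, to which ABCG2 belongs, had 20 genes with windows. Of these 20, 10 had GCGTG and 6 had TNGCGTG in at least 1 window, where 6.69% of all genes had TNGCGTG. The printed windows thus do not stand for that list. A match describes the letters and is no evidence of binding, and sequence outside these windows was not searched.

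Further AHR targets gave the nearest comparison for the question of whether CYP1B1 was accompanied. The list held 22 genes, of which 19 were measured, and the others were not analysed here. In fructose 15 of 19 were higher and 4 lower, with a median of 0.07, where 56.2% of all probe sets were higher and the median was 0.02. Of the 19, 8 were dimmer than the median probe set, which limits what their direction can show. None of the 19 passed the limma test over all probe sets, and 5 were higher and 0 lower at an unadjusted p under 0.05, where 7.65% and 5.43% of all probe sets did so. On the fructose arrays the median difference from the glucose mean was 0.11, 0.02 and 0.12, so replicate 2 lay close to glucose, and without it the median of the list was 0.15. ABCG2, an ATP-driven exporter of drugs and porphyrins, had 117, 135 and 110 in fructose and 83.3, 78.7 and 88.1 in glucose. Its arrays were clearly apart, with a difference of 0.53 (SE 0.10, limma adjusted p = 0.14). It passed with bright probe sets alone and with an intensity trend and robust variances, settings that called 2.3% and 1.68% of probe sets.

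**Figure D2:**
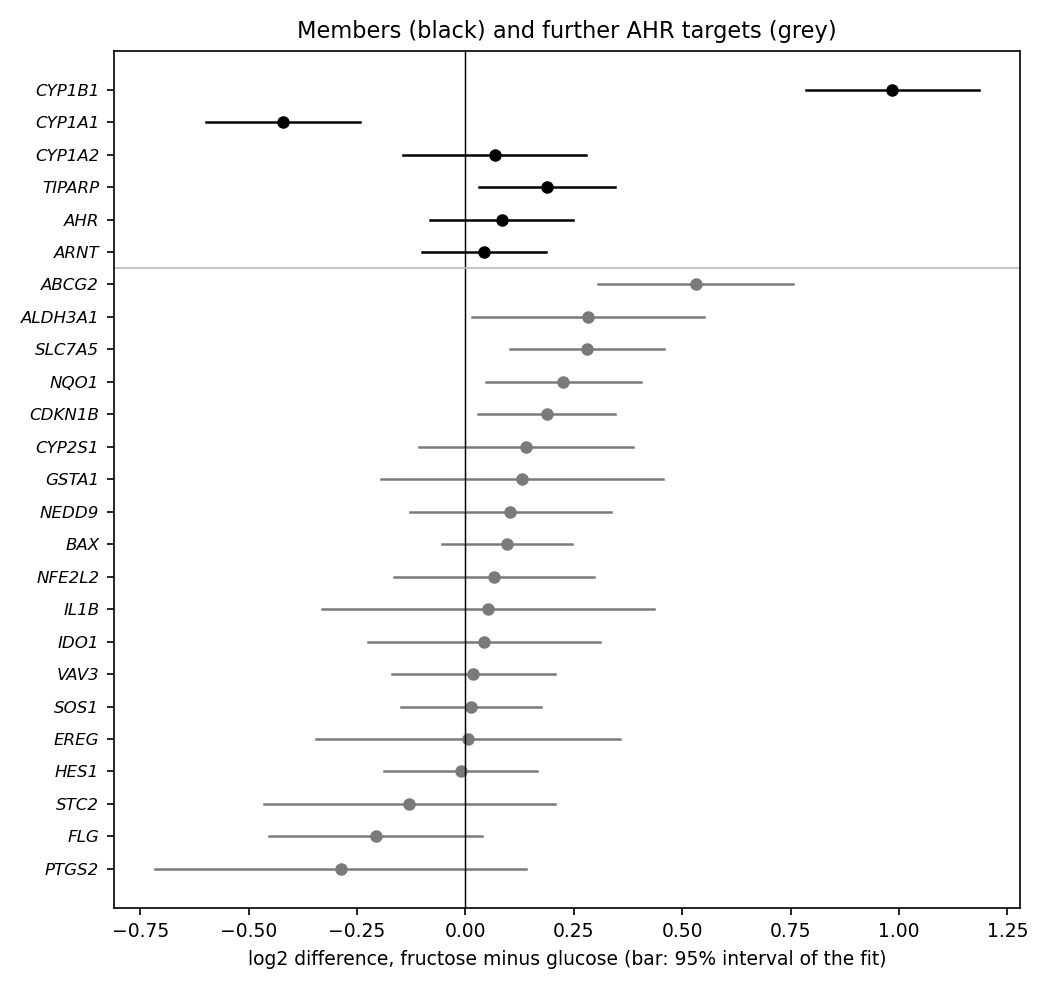
Log2 difference, fructose minus glucose (horizontal axis), with its 95% interval for the 6 members (black) and the 19 measured further AHR targets (grey, ordered by size). CYP1B1 (0.98) stands apart at the right, CYP1A1 (-0.42) is the member furthest to the left, and the further targets lie between -0.29 and 0.53.

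SLC7A5, which imports tryptophan and other large amino acids, had 817, 781 and 754 in fructose and 639, 610 and 688 in glucose. It differed by 0.28 (SE 0.08, limma adjusted p = 0.23), and it passed with the intensity trend. NQO1, a quinone reductase driven by both AHR and NRF2, had 690, 734 and 676 in fructose and 590, 568 and 640 in glucose. It differed by 0.23 (limma adjusted p = 0.30), with all fructose arrays above all glucose arrays. CDKN1B, the cell cycle inhibitor p27, differed by 0.19 (limma adjusted p = 0.32) and also did not overlap. ALDH3A1, an aldehyde dehydrogenase of the classical AHR battery, is outside the naming rule and was chosen after its values were seen. It was dim, with 21.7, 20.8 and 24.9 in fructose and 19.9, 16.0 and 19.5 in glucose. The lowest member was PTGS2, the inducible cyclooxygenase, at -0.29 (95% interval -0.72 to 0.14), also chosen after its values were seen, and its arrays overlapped. NFE2L2, which encodes NRF2 and was likewise chosen after its values were seen, overlapped as well, with 532, 443 and 452 in fructose and 446, 491 and 425 in glucose.

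Of the genes that hold or assist AHR none passed the test over all probe sets, and the 2 with the smallest p were NRIP1 and PTGES3. PTGES3, the HSP90 co-chaperone p23 of the cytosolic AHR complex, had 992, 968 and 920 in fructose and 1190, 1232 and 1122 in glucose, a difference of -0.30 (SE 0.07, limma adjusted p = 0.20) that passed with the intensity trend. HSP90AA1, a chaperone of the same complex, differed by -0.19 (limma adjusted p = 0.34), and HSP90AB1, chosen after its values were seen, by -0.11 (95% interval -0.26 to 0.05, limma adjusted p = 0.54). NRIP1, a nuclear receptor corepressor that also binds AHR, had 87.3, 74.4 and 77.4 in fructose and 43.7, 54.3 and 50.7 in glucose. It differed by 0.69 (SE 0.11, limma adjusted p = 0.13) and passed with bright probe sets alone and with the intensity trend. SP1, which cooperates with AHR at CYP1 promoters, differed by -0.16 (limma adjusted p = 0.37). Over the 13 measured genes of 16 in this list, 0 were called, 7 were higher and 6 lower, and the median was 0.04, or 0.0011 without fructose replicate 2. At an unadjusted p under 0.05, 1 was higher and 3 lower, where 7.65% of all probe sets were higher and 5.43% lower. Arrays did not overlap for 7 of the 13, 3 higher and 4 lower, where 11.4% of all probe sets were higher and 8.81% lower in this way.

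Relatives of AHR and ARNT in the bHLH-PAS family, which share dimer partners with them, differed in both directions. EPAS1, the hypoxia factor HIF2α and a partner of ARNT, had 109, 86.2 and 91.4 in fructose and 63.2, 73.1 and 72.1 in glucose, a difference of 0.45 (SE 0.11, limma adjusted p = 0.20). HIF1A, chosen after its values were seen, differed by -0.12 (limma adjusted p = 0.62). The circadian factor NPAS2 had 785, 705 and 750 in fructose and 590, 626 and 592 in glucose. It differed by 0.31 (limma adjusted p = 0.19) and passed with the intensity trend. BMAL2 differed by -0.27 (limma adjusted p = 0.23), with all fructose arrays below all glucose arrays, and BMAL1 by 0.17 with overlap. All 13 listed genes were measured, 0 were called, 6 were higher and 7 lower, and the median of -0.0033 was -0.07 without fructose replicate 1. At an unadjusted p under 0.05, 2 were higher and 1 lower, where 7.65% of all probe sets were higher and 5.43% lower.

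Genes that make and break down AHR ligands from tryptophan were mostly dim or level. IDO1, IDO2 and TDO2, which open the tryptophan ring and were also chosen after their values were seen, were each brighter than at most 12.0% of probe sets, with intensities of 4.82 to 6.62 in fructose and 4.95 to 7.38 in glucose. KYNU, which cleaves kynurenine and was chosen after its values were seen, overlapped, with 142, 111 and 103 in fructose and 111, 119 and 102 in glucose. Besides SLC7A5, the member with the smallest p was SLC3A2, the heavy chain that carries SLC7A5 to the membrane, at 0.24 (limma adjusted p = 0.41). SLC3A2 had 887, 700 and 873 in fructose and 666, 675 and 739 in glucose, so that fructose replicate 2 lay within the glucose range. KMO was dim and differed by 0.17, and KYAT3, a kynurenine aminotransferase, by 0.11. Of 13 measured genes 0 were called and 1 passed at an unadjusted p under 0.05, SLC7A5, a share of 7.69% where 13.1% of all probe sets passed. The list's median of 0.04 was 0.08 when glucose replicate 2 was left out and -0.01 when glucose replicate 3 was.

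**Figure D3:**
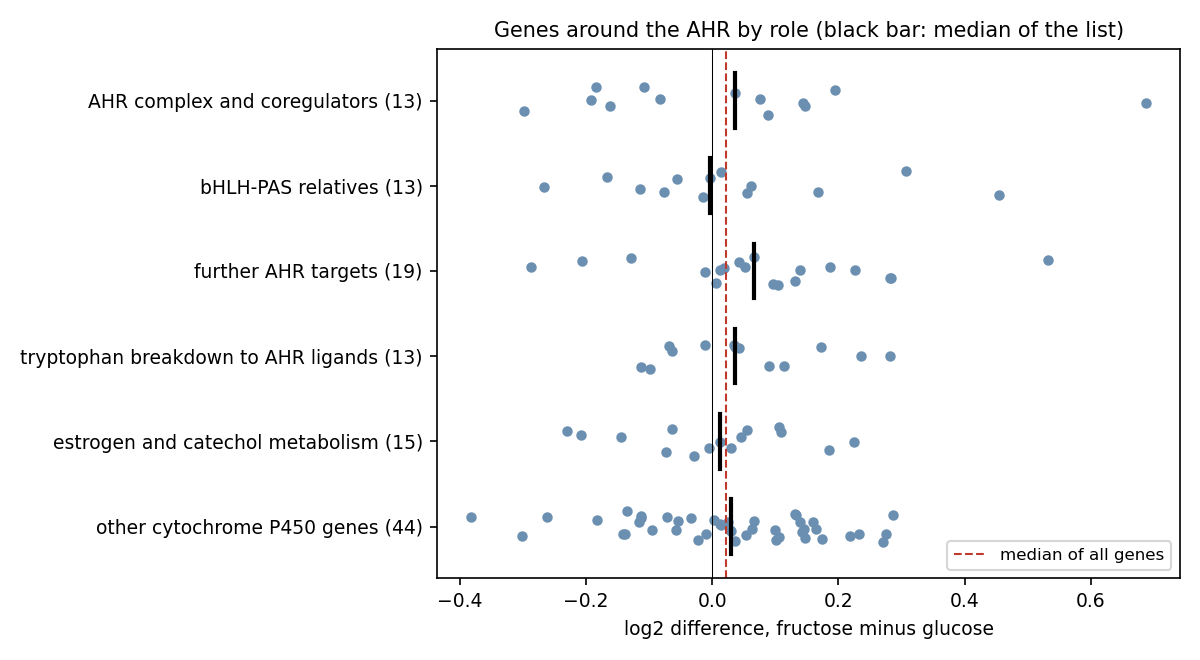
Log2 difference, fructose minus glucose (horizontal axis), of each measured gene in 6 lists by role, with the number of genes in brackets, a black bar at each list's median and a dashed line at the median of all genes (0.02). List medians lie between -0.0033 and 0.07, and the points furthest to the right are NRIP1 (0.69), ABCG2 (0.53) and EPAS1 (0.45).

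Genes around the known CYP1B1 reaction, which make, oxidise, methylate or sulfonate estrogens, showed no call. Of 15 measured genes 0 passed the limma test and 2 were lower at an unadjusted p under 0.05, HSD17B12 (-0.23, limma adjusted p = 0.29) and HSD17B4 (-0.21, limma adjusted p = 0.32). HSD17B12 had 390, 367 and 344 in fructose and 415, 451 and 425 in glucose. HSD17B4, a peroxisomal enzyme that oxidises estradiol and fatty acids, had 449, 416 and 413 in fructose and 473, 522 and 482 in glucose. The 2 genes are 13.3% of the list, where 13.1% of all probe sets passed at that p. The arrays of the sugars were apart for these 2 genes and overlapped for the other 13, where 20.2% of all probe sets did not overlap. POR, the reductase that feeds electrons to microsomal P450 enzymes, was chosen after its values were seen. It had 62.5, 76.6 and 66.5 in fructose and 67.8, 62.3 and 60.4 in glucose, which overlapped, with a difference of 0.11 (95% interval -0.12 to 0.33). SULT1A1 (0.23) and UGT2B7 (0.18) overlapped between the sugars, and UGT2B7 was dim. The median of the list was 0.01, and 0.07 without fructose replicate 3.

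Set among the other P450 genes, the CYP1 family held both extremes. Of 47 measured P450 genes CYP1B1 had the highest and CYP1A1 the lowest difference, which is a description because CYP1B1 was chosen for its value. The other 44 ran from -0.38 to 0.29 with a median of 0.03, and 34 of them were dimmer than the median probe set. None was called, and at an unadjusted p under 0.05, 3 were higher and 2 lower, a share of 11.4% where 13.1% of all probe sets passed. CYP11B1, an adrenal steroid hydroxylase, had 39.8, 35.7 and 43.1 in fructose and 33.8, 34.6 and 28.8 in glucose, a difference of 0.29 (limma adjusted p = 0.32). CYP4A11, a fatty acid hydroxylase, was dim and differed by -0.38 (limma adjusted p = 0.27). CYP4F22 and CYP4F12, both dim, differed by 0.28 and 0.27.

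**Figure D4:**
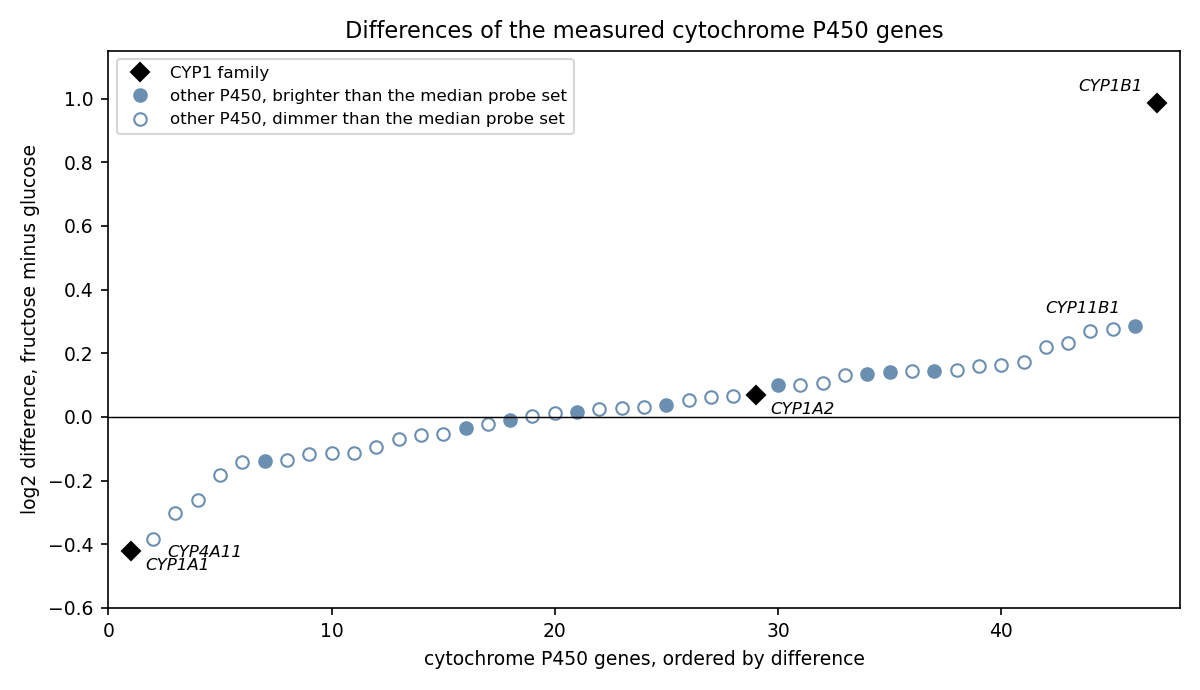
Log2 difference, fructose minus glucose (vertical axis), of 47 P450 genes ordered by that difference, with the CYP1 family as diamonds and open circles for genes dimmer than the median probe set. CYP1B1 (0.98) lies far above the next gene, CYP11B1 (0.29), and CYP1A1 (-0.42) lies at the low end beside CYP4A11 (-0.38).

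The genes whose profile over the 6 arrays was most like that of CYP1B1 were sought among 169 genes brighter than the median probe set with an SD of at least 0.3. The highest Pearson correlations were those of ALDH2 (0.99), a mitochondrial aldehyde dehydrogenase, DUSP10 (0.99), a phosphatase of stress kinases, SQSTM1 (0.99), an autophagy receptor, CDH11 (0.99), a mesenchymal cadherin, and STX3 (0.98), a membrane fusion protein. ALDH2 had 152, 142 and 153 in fructose and 95.7, 91.2 and 97.5 in glucose. DUSP10 had 214, 180 and 187 in fructose and 108, 119 and 117 in glucose, with fructose replicate 1 highest and replicate 2 lowest as for CYP1B1. The most opposite profiles were those of IFTAP (-0.99), TXNIP (-0.99), TENM1 (-0.99), the small nucleolar RNA SNORD28 (-0.99) and the gap junction gene GJA1 (-0.99). GJA1 had 107, 114 and 105 in fructose and 212, 193 and 194 in glucose. The 6 points share 1 split between sugars, so any gene with a wide gap correlates strongly in one direction.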

How the data were processed

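Gene expression was measured on 6 arrays with total RNA from MDA-MB-231 cells, 3 from fructose and 3 from glucose cultures. Per the submitters' processing notes, the authors ran RMA, and the deposited value is an intensity for each probe set on each array. Its version and the genome build are not given in the labels or files used. With a maximum of 9287 and no value at 0 or below, intensities were taken to be linear, and log2 values were computed without a pseudocount.

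The table had 32321 rows. Of these, 4091 with identifiers below the lowest one paired with a gene were taken as controls and left out, and 28230 were tested. The platform annotation paired 19158 of them with 1 gene and 1388 with several genes, leaving 7684 without a name here. Gene numbers of 19128 matched the current RefSeq table.

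Fructose was compared with glucose with R 4.3.3 and limma 3.58.1 (eBayes after lmFit, two-sided), without covariates, and p-values were adjusted by Benjamini-Hochberg over 28230 probe sets with a threshold of 0.05. The code was tested on simulated data. Gene lists are described by counts and medians, and the shares beside them are over all tested probe sets, unnamed ones included. Over the 18404 genes by their brightest probe set, 14.3% passed at an unadjusted limma p under 0.05, 1569 higher and 1056 lower. Of all 18404, 56.5% were higher in fructose. Arrays did not overlap for 2396 higher and 1840 lower genes. The members and lists were chosen with earlier results of these data known. Named genes were all members, the 4 genes with the smallest p in each list, the 5 most and least correlated with CYP1B1, TXNIP and the markers, and the text marks any other gene as chosen after seeing its values. Same-numbered arrays did not deviate together (correlations -0.03, -0.02 and -0.05), so no pairing was used. Results were recomputed with a replicate block, without each array in turn, after repeated quantile normalization or centring, on bright probe sets alone, with array weights, with robust variances and an intensity trend, without moderation, with control probe sets and with the mean over a gene's probe sets.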

Additional observations from a re-analysis of the deposited data

How the results depend on the processing

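The number of probe sets called depended on the variance model, with 1 in the fit reported, 325 among bright probe sets alone, 473 with an intensity trend and robust variances and 0 with the unmoderated test. Among members other than CYP1B1 the count was 0, and 1 with bright probe sets alone, where CYP1A1 had an adjusted p of 0.036. That setting called 2.3% of the probe sets fitted. With the intensity trend the adjusted p of CYP1A1 was 0.060, and over all alternatives run it ranged from 0.036 to 0.37. The cause was not tested. The difference of CYP1B1 stayed between 0.92 and 1.05 with an array left out and between 0.96 and 1.01 otherwise, and that of CYP1A1 between -0.48 and -0.39 in all 15 alternatives. CYP1A2 ran from -0.0010 to 0.12 with an array left out, turning negative without glucose replicate 3. With an array left out, list medians ran from -0.070 to 0.029 for bHLH-PAS relatives, 0.038 to 0.15 for further AHR targets, -0.012 to 0.076 for tryptophan breakdown, -0.0077 to 0.075 for estrogen metabolism, and from 0.0015 to 0.062 for other P450 genes, whose median was 0.068 with bright probe sets alone. The median of the 3 target genes ran from -0.0010 to 0.12 and that of the AHR complex from 0.0011 to 0.075. With the replicate number as a block, 1 probe set and 0 members were called, CYP1A1 had an adjusted p of 0.37, and no other call changed. The count of members other than CYP1B1 at an unadjusted p under 0.05 was 2 in the fit reported and between 1 and 3 in the alternatives. In the fit reported 13.1% of all probe sets passed at that p, and this share was not computed for the alternatives. Dim probe sets, which include 34 of the 44 other P450 genes, limit what can be seen there.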
